A study of Mus musculus with 4 samples.

Results

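The 7 genes described here were *Bcl6*, *Ascl2*, *Il21*, *Il6st*, *Il6ra*, *Pou2af1* and *Stat3*, picked by symbol as genes of the T follicular helper (TFH) programme and of the IL-6 and IL-21 signals that feed into it. All 7 were among the 24369 genes listed, and 6 of them were among the 14143 genes with enough counts to be tested. The exception was *Ascl2*. Naïve CD4 T cells from the spleens of wild-type C57BL/6 mice were activated with IL-2, anti-CD28 in solution and anti-CD3 on the plate, with no polarizing cytokine, and were transduced on day 2 with an eGFP retrovirus that carried either no further gene (EV RV) or Tox (Tox RV). On day 5 they were restimulated through CD3 for 5 h, and CD4 GFP+ cells were sorted for RNA-seq. The study's design text adds anti-CD28 to this last step and its methods do not. The sample labels name anti-CD28 a second time where the methods name recombinant human IL-2. Both groups therefore shared the activation, the IL-2, the vector backbone and the GFP sort, and differed in Tox, which was driven by the retrovirus and not by its own promoter. The age of these mice was not given in the sources used here. Each group held 2 libraries from 2 mice, and a shared replicate number is not stated to mark a shared mouse.

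TFH cells are the CD4 T cells that help B cells in germinal centres. BCL6, a zinc finger repressor, directs their differentiation and is opposed by Blimp-1 (gene *Prdm1*), ASCL2 is a basic helix-loop-helix factor that induces *Cxcr5*, and OBF-1 (gene *Pou2af1*) is a coactivator that binds DNA together with the OCT factors and is needed for germinal centres. IL-6 binds its receptor chain IL-6Rα (gene *Il6ra*), which engages the shared signalling chain gp130 (gene *Il6st*), and IL-21 (gene *Il21*), a cytokine made by TFH cells, binds IL-21R with the common gamma chain. Both receptors act through Janus kinases on STAT3, which favours *Bcl6*, whereas IL-2 acts through STAT5 and opposes it.

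The libraries held 46989997 to 74548723 expected counts, which are RSEM's estimates of fragments per gene. *Tox* checked the labels, at 7.22 and 3.37 TPM (transcripts per 1000000 transcripts) with EV RV (replicates 1 and 2) and 69.1 and 56.9 TPM with Tox RV (replicates 1 and 2). All 8 CD4 T cell markers examined had enough counts to be tested, with *Cd4* at 353.5 ± 42.5 CPM (SD, n = 2) with EV RV and 459 ± 28.9 CPM (SD, n = 2) with Tox RV. EV RV replicate 1 stood apart from the other 3 libraries, at -53.8 on a first principal component where the others lay between 5.70 and 25.8, and 45S pre-ribosomal RNA (*Rn45s*) took 24.7% of its counts against 7.14% to 11.97% elsewhere. It held the highest or the lowest value of 74.1% of all genes tested. Values without it are given below for *Pou2af1*, *Bcl6*, *Il6ra* and some of the other named genes. Values in CPM are counts per 1000000 counts of a library after TMM scaling, and serve to compare libraries, while TPM, which takes account of length, serves to compare genes.

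The start regions of the genes on which the results turn are shown because *Bcl6* is a known STAT3 target and because *Pou2af1* was the member whose groups differed most relative to their spread. The sequences are from RefSeq (build GRCm38.p6, the assembly of mm10), run 5′ to 3′ on the gene's own strand and cover 250 bases before to 50 after an annotated start, and all 7 genes matched a symbol there. Capitals mark matches, on either strand, to the STAT site TTCNNNGAA, the octamer ATGCAAAT, the ASCL2 type E-box CAGCTG or the AP-1 site TGANTCA. The upstream *Bcl6* start region lies on chromosome 16 (chr16:23988803-23989102, minus strand) and the downstream start region lies inside the annotated gene (chr16:23981234-23981533, minus strand). That of *Pou2af1* lies on chromosome 9 (chr9:51213440-51213739, plus strand). In GENCODE (mm10) the protein-coding genes themselves span chr16:23965052-23988852 (*Bcl6*), chr7:142966829-142969264 (*Ascl2*), chr3:37222759-37232636 (*Il21*), chr13:112464070-112510086 (*Il6st*), chr3:89864059-89913196 (*Il6ra*), chr9:51213708-51240080 (*Pou2af1*) and chr11:100885098-100939540 (*Stat3*).
Bcl6 upstream start: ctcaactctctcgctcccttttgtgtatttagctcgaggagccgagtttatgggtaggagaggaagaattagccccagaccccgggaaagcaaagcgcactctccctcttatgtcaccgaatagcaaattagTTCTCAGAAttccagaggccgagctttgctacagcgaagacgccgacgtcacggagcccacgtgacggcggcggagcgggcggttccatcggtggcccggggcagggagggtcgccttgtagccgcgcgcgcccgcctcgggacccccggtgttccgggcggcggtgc
Bcl6 downstream start: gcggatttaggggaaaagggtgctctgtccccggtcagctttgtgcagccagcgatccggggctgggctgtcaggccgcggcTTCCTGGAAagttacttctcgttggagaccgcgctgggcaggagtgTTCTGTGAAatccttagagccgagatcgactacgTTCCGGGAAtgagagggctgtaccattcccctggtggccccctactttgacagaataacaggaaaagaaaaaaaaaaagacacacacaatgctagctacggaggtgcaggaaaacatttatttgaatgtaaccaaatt
Pou2af1 start: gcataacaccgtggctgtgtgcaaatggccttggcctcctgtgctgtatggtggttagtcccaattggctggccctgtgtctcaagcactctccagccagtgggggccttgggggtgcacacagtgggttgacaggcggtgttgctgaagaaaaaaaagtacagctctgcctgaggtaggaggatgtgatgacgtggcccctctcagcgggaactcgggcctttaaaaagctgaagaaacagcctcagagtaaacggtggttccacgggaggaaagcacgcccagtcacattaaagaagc
The upstream *Bcl6* region held 1 STAT match, TTCTCAGAA, which begins 118 bases before the start. The downstream region held 3, which were TTCCTGGAA, TTCTGTGAA and TTCCGGGAA at 168, 122 and 88 bases before the start. A STAT match occurred in 8.30% of the 32851 start regions of the same length, and 3 or more in 0.0335% (11 regions). The threshold of 3 equals the count in the downstream *Bcl6* region and was applied to the STAT site alone. The start regions of all members were searched for several motifs, so this share is a description and not a test. None of these 4 motifs was matched in the *Pou2af1* region, while the octamer occurred in 1.74%, the E-box in 16.3% and the AP-1 site in 7.81% of all regions. Among the other members, the *Stat3* region held a single E-box match (CAGCTG), and those of *Il21*, *Il6st*, *Il6ra* and *Ascl2* held none of the 4 motifs. A match is a run of letters and not a measured binding site, and the gene-level counts do not say which *Bcl6* start was used.

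By level per length the 7 genes spanned a wide range. *Stat3* was highest, with a median of 140.6 TPM over the 4 libraries, followed by *Il6st* (16.6 TPM), *Bcl6* (14.0 TPM), *Pou2af1* (5.11 TPM), *Il6ra* (2.39 TPM), *Il21* (0.555 TPM) and *Ascl2* (0.035 TPM). *Stat3* stood clear of the rest in every library, and the ranges of neighbours overlapped from *Il6st* down to *Il21*, while *Ascl2* lay below *Il21* in every library. *Il6st* ranged from 13.8 to 18.5 TPM and *Bcl6* from 6.67 to 24.5 TPM, and *Pou2af1* (2.01 to 6.70 TPM) overlapped the range of *Bcl6* at its lower end, although *Bcl6* was higher within each library, and that of *Il6ra* (1.84 to 4.41 TPM). TPM rests on the transcript models used by the authors, which for *Il6ra* and *Il6st* were a single transcript each.

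**Figure D1:**
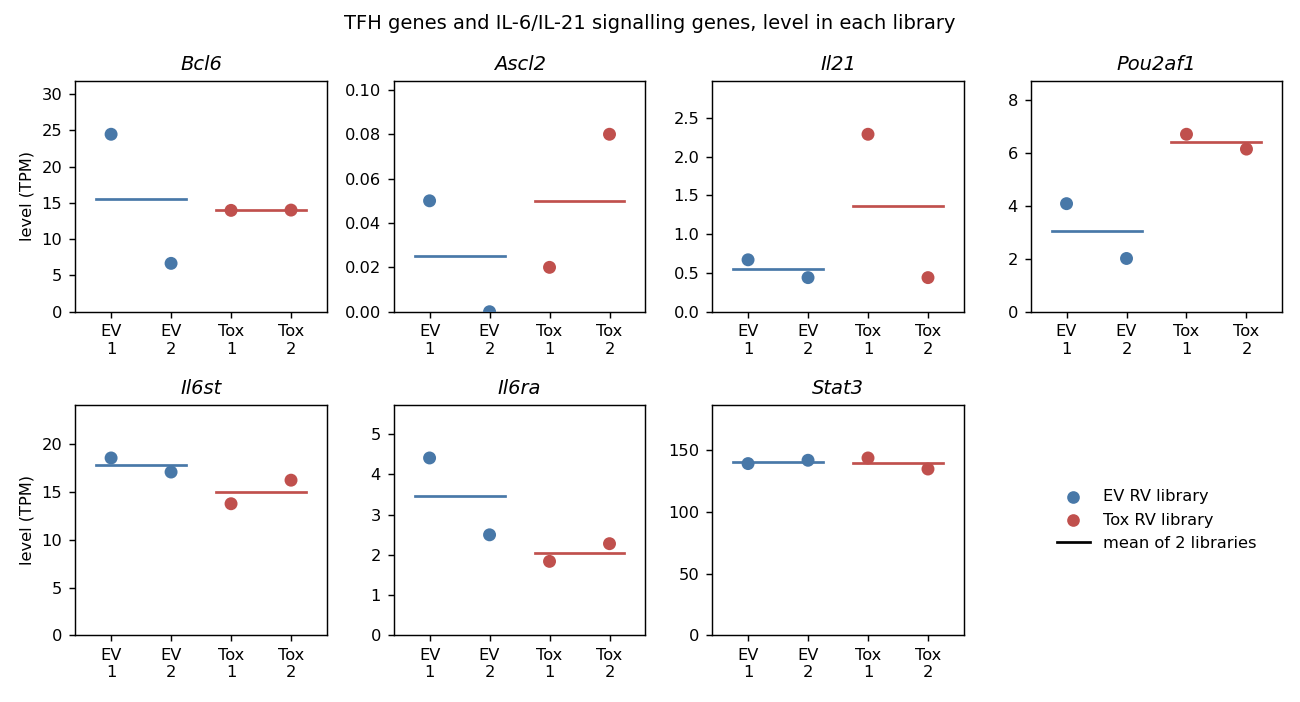
Level of each of the 7 genes (vertical axis, TPM, each panel on its own scale from 0) in the 2 EV RV (blue) and 2 Tox RV (red) libraries, with lines at the group means. The 2 Tox RV points sit above both EV RV points for *Pou2af1* and below them for *Il6ra* and *Il6st*, *Bcl6* is split between the EV RV libraries (24.5 and 6.67 TPM), and *Il21* is high in Tox RV replicate 1 alone (2.29 TPM).

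The comparison of Tox RV with EV RV cells asks which of these genes respond to ectopic Tox when IL-2 is present. Across all genes tested, 0 passed an adjusted p of 0.05 by edgeR quasi-likelihood (0% of 14143), so none of the 6 members tested did. *Tox* itself, at a log2 fold change of 3.68, did not pass either (adjusted p = 0.490 by edgeR quasi-likelihood). A count of 0 by this test therefore does not show that the members were unchanged. DESeq2, the tool named in the study's methods, called 22 genes in all (0.121%), *Tox* among them, and 0 members. At an unadjusted p below 0.05 there was 1 member, *Pou2af1*, beside 512 genes overall (3.62%), of which 1.07% of all genes tested were higher and 2.55% lower with Tox RV. With DESeq2, 2 members (*Pou2af1* and *Il21*) had an unadjusted p below 0.05, beside 4.21% of all genes. The same 2 of 6 differed by more than 2-fold, beside 3.38%. The groups did not overlap for 3 of the 6 members, with *Pou2af1* higher and *Il6st* and *Il6ra* lower in Tox RV cells, beside 36% of all genes tested (18.6% higher, 17.4% lower). The p-values weigh a difference against the spread between 2 libraries a group, with each gene's spread moderated by that of other genes.

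*Pou2af1*, which encodes the coactivator OBF-1, had the clearest difference of the 7. Its level was 4.08 and 2.01 TPM with EV RV (replicates 1 and 2) and 6.70 and 6.14 TPM with Tox RV (replicates 1 and 2), from 249, 233, 666 and 500.4 expected counts. Both Tox RV values were high and close to each other, and each exceeded the higher EV RV value. In TMM-scaled units the level went from 4.48 ± 2.01 CPM (SD, n = 2) to 10.1 ± 0.629 CPM (SD, n = 2). The fold change was 2.26 with a 95% interval of 1.25 to 4.11 (log2 fold change 1.18, standard error 0.35, unadjusted p = 0.0157, adjusted p = 0.897 by edgeR quasi-likelihood). By unadjusted p it ranked 130 of 14143. DESeq2 gave the same log2 fold change of 1.18 with an adjusted p of 0.283. Leaving out a library at a time kept the log2 fold change between 0.77 (without EV RV replicate 2) and 1.71 (without EV RV replicate 1). The 2 genes closest in profile over the 4 libraries were *Dhrs9* and *Mpp2* (distances of centred log2 CPM of 0.28 and 0.36), with 7 genes within 0.5.

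*Pou2af1* is best known from B cells, so B cell markers were read beside it. The 10 markers listed summed to 49.0 and 37.9 CPM with EV RV and 46.5 and 35.9 CPM in Tox RV cells, of which *Cd74* made up 33.2 to 45.2 CPM, a gene that activated T cells can also express. *Ms4a1* and *Pax5* were at 0 counts in all 4 libraries. Of the 5 markers tested, 1 (*Cd79b*) was higher and 4 were lower with Tox RV, at a median log2 fold change of -0.49. The groups overlapped for each of these 5 markers. *Cd79b* was at 0.498 and 0.801 CPM with EV RV and 0.727 and 1.27 CPM with Tox RV. Among the markers with too few counts to be tested, *Blk* and *Ebf1* differed without overlap, in opposite directions. Counts of *Blk* were 0 and 0 with EV RV against 4 and 2 with Tox RV. *Ebf1* was at 0.237 and 0.131 CPM with EV RV against 0.0632 and 0.0385 CPM with Tox RV. The part of B cells in the *Pou2af1* values was not tested.

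OBF-1 works through OCT1 and OCT2, encoded by *Pou2f1* and *Pou2f2*. *Pou2f2* was at 37.7 and 17.0 CPM with EV RV (replicates 1 and 2) and 10.3 and 12.6 CPM with Tox RV (replicates 1 and 2), so it was lower in each Tox RV library while *Pou2af1* was higher. Its log2 fold change was -1.26 (95% interval -2.22 to -0.30, unadjusted p = 0.0190, adjusted p = 0.897 by edgeR quasi-likelihood, adjusted p = 0.215 in DESeq2). The size depended on EV RV replicate 1, with -0.59 without that library and -1.72 without EV RV replicate 2, where it was the only EV RV library left. *Pou2f1* was at 72.4, 64.4, 56.1 and 68.5 CPM in the same order, with overlapping groups and a log2 fold change of -0.14 (95% interval -0.60 to 0.33). In levels per length, *Pou2f1* (6.74 to 9.47 TPM) lay just above the range of *Pou2af1* (2.01 to 6.70 TPM), and *Pou2f2* (4.99 to 20.1 TPM) overlapped it. Fewer transcripts per cell and fewer cells with the transcript cannot be told apart in these bulk libraries, for this and for every gene below.

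**Figure D2:**
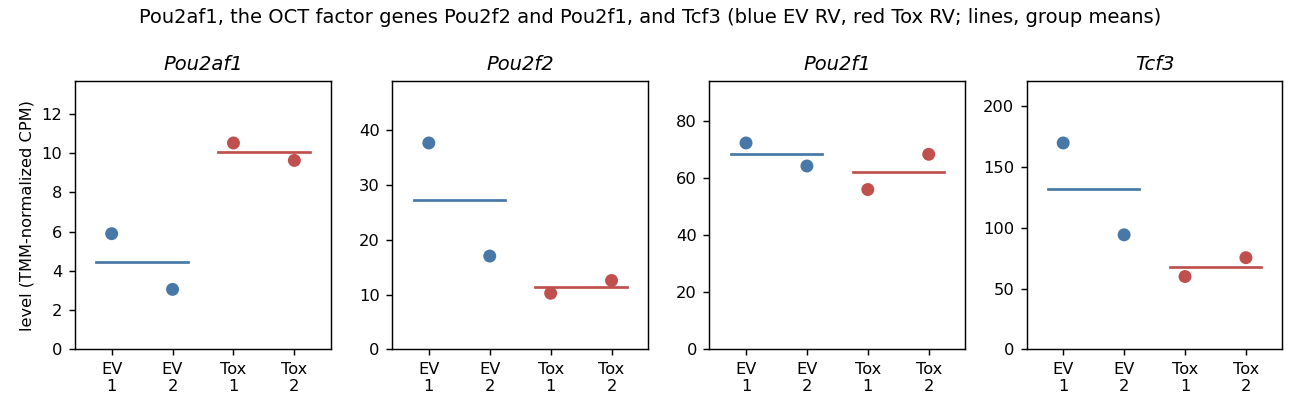
TMM-normalized CPM (vertical axes from 0) of *Pou2af1*, of the OCT factor genes *Pou2f2* and *Pou2f1* and of the E protein gene *Tcf3* in the 4 libraries, blue for EV RV and red for Tox RV, with lines at group means. *Pou2af1* is higher in the 2 Tox RV libraries (10.5 and 9.64 CPM), *Pou2f2* and *Tcf3* are lower there, and *Pou2f1* overlaps.

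*Bcl6*, the lineage-directing repressor of TFH cells, differed widely between the EV RV libraries, while the group means were close. Its level was 24.5 and 6.67 TPM with EV RV (replicates 1 and 2) and 14.0 TPM in each Tox RV replicate, from 1964, 1016, 1827 and 1502 expected counts. The Tox RV libraries fell between the EV RV libraries, which were 3.49-fold apart, a gap wider than that of 97.3% of all genes tested, while the Tox RV libraries were 1.00-fold apart. The fold change between groups was 0.968 with a 95% interval of 0.384 to 2.44, so a difference of 2-fold in either direction lies within the interval. The direction turned with the library left out, from a log2 fold change of 1.11 without EV RV replicate 1 to -0.69 without EV RV replicate 2.

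*Prdm1*, whose product Blimp-1 and BCL6 repress each other's genes, was arranged the opposite way. Its level was 5.74 and 11.5 TPM with EV RV (replicates 1 and 2) and 9.19 TPM in each Tox RV replicate. The EV RV library with the most *Bcl6* had the least *Prdm1*, and the Tox RV libraries again fell between. The log2 ratio of *Bcl6* TPM to *Prdm1* TPM was 2.09 and -0.78 for the EV RV libraries and 0.61 in each Tox RV library. Its group means were 0.66 ± 2.03 (SD, n = 2) and 0.61 ± 0.0029 (SD, n = 2), a difference of -0.05 (two-sided exact permutation test, p = 1, where 2 libraries against 2 cannot give less than 0.33). The log2 fold change of *Prdm1* alone was 0.16 (95% interval -0.71 to 1.03).

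EV RV replicate 1, where *Bcl6* was highest, held the highest value of 37% of all genes tested. Among the 104 list genes tested, that library was highest for 50 and lowest for 24. Of those highest there, 3 are named after their values were seen. *Klf2*, a quiescence factor that TFH cells turn off, was at 36.5 CPM in EV RV replicate 1 and 5.08, 7.001 and 8.36 CPM in EV RV replicate 2 and Tox RV replicates 1 and 2. *S1pr1*, the receptor for egress from lymphoid tissue, was at 63.9, 22.8, 17.2 and 28.4 CPM, and *Tcf7*, which encodes TCF-1, at 242, 67.9, 148 and 195 CPM in the same order. Of those lowest there, *Id2* was at 80.5, 150, 244 and 171 CPM and *Batf* at 17.6, 62.4, 58.7 and 58.7 CPM in that order. The 2 genes closest to *Bcl6* in centred log2 CPM profile over the 4 libraries were *Fam49a* and *3000002C10Rik* (Euclidean distances of 0.21 and 0.22), and 42 genes lay within a distance of 0.5. With 4 libraries this likeness is a description only.

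**Figure D3:**
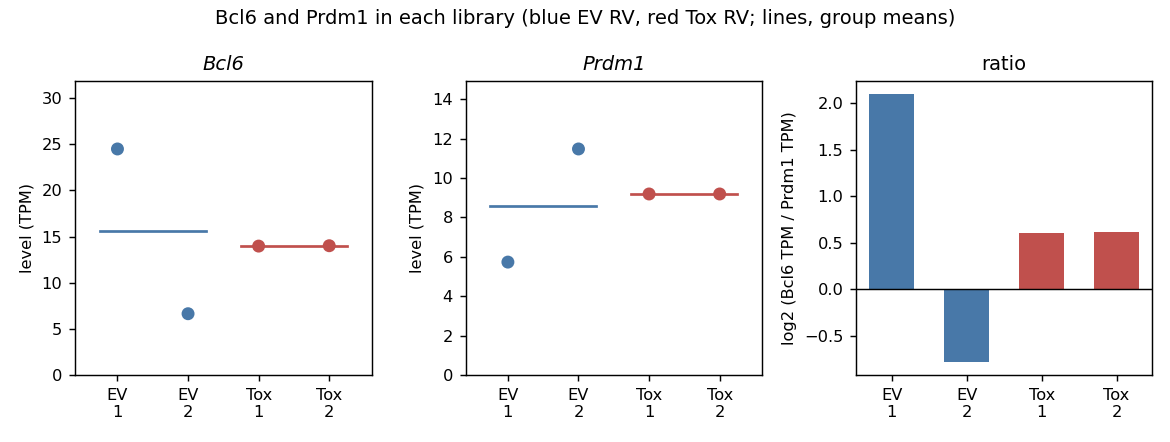
TPM of *Bcl6* and *Prdm1* in each library with group means (left and middle, axes from 0) and the log2 ratio of the 2 genes (right, bars from 0), blue for EV RV and red for Tox RV. The EV RV libraries lie at 2.09 and -0.78 and the Tox RV libraries both at 0.61.

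*Ascl2* was at the floor of detection. It had expected counts of 2 and 0 with EV RV (replicates 1 and 2) and 1 and 4 with Tox RV (replicates 1 and 2), or at most 0.08 TPM. Taking 3 counts as the floor, which is 0.0394 to 0.0711 CPM depending on the library, only Tox RV replicate 2 lay above it, so no fold change is given and a difference was not detectable at this depth. *Cxcr5*, a TFH chemokine receptor and an ASCL2 target, was also low, at 0.49 and 0.26 TPM with EV RV and 0.68 and 0.52 TPM with Tox RV, with a log2 fold change of 0.80 (95% interval -0.36 to 1.96). E proteins are the DNA-binding partners of ASCL2. Of these *Tcf3*, which encodes E2A, was at 169.8 and 94.2 CPM with EV RV (replicates 1 and 2) and 59.9 and 75.4 CPM with Tox RV (replicates 1 and 2), a log2 fold change of -0.96 (95% interval -1.74 to -0.19, unadjusted p = 0.0227, adjusted p = 0.897 by edgeR quasi-likelihood). It was -0.48 without EV RV replicate 1 and -1.33 without EV RV replicate 2. *Tcf12*, which encodes HEB, had a log2 fold change of -0.12 (95% interval -0.53 to 0.29). *Id2*, an antagonist of E proteins, was higher in Tox RV cells (log2 fold change 0.85, unadjusted p = 0.0496, adjusted p = 0.897 by edgeR quasi-likelihood), at 0.46 without EV RV replicate 1 and 1.37 without EV RV replicate 2. The other antagonists listed, *Id1* and *Id3*, went the other way, at -0.21 (95% interval -0.96 to 0.55) and -0.29 (95% interval -1.18 to 0.61).

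*Il21*, the TFH cytokine, was high in a single library. Its level was 0.67 and 0.44 TPM with EV RV (replicates 1 and 2) and 2.29 and 0.44 TPM with Tox RV (replicates 1 and 2), from 50.2, 62.0, 278 and 43.6 expected counts. Tox RV replicate 2 lay within the EV RV range, and the gap between the Tox RV libraries (5.18-fold) was wider than that of 99.4% of all genes tested. The fold change of 2.65 had a 95% interval of 0.721 to 9.77 (adjusted p = 0.897 by edgeR quasi-likelihood). Without Tox RV replicate 1 the log2 fold change went from 1.41 to -0.24, and without Tox RV replicate 2 to 2.14. DESeq2 gave an unadjusted p of 0.0309 and an adjusted p of 1.00. The 2 genes closest in profile were *Akr1c18* and *Stab1* (distances of 0.53 and 0.79), both also highest in Tox RV replicate 1, and no gene lay within 0.5. The annotation places an antisense gene, *Gm12534*, over 469 exon bases of *Il21*, and use of strand in counting is not stated.

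The chains of the IL-21 receptor were far more abundant than the cytokine. *Il21r*, at 129 and 108 TPM with EV RV and 132 and 106 TPM with Tox RV, was also highest in Tox RV replicate 1, with overlapping groups and a log2 fold change of 0.09 (95% interval -0.38 to 0.56). *Il2rg*, which encodes the common gamma chain, was at 448 and 245 TPM with EV RV and 318 and 265 TPM with Tox RV, with a log2 fold change of -0.16 (95% interval -0.88 to 0.57). Per length, the lowest *Il21r* value (106 TPM) was far above the highest *Il21* value (2.29 TPM).

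*Il6ra*, the chain that binds IL-6, was lower in both Tox RV libraries. Its level was 4.41 and 2.50 TPM with EV RV (replicates 1 and 2) and 1.84 and 2.28 TPM with Tox RV (replicates 1 and 2), from 356, 383, 241 and 245 expected counts. The highest value was that of EV RV replicate 1, and the remaining 3 libraries were close together. The fold change was 0.635 with a 95% interval of 0.364 to 1.11 (unadjusted p = 0.0921, adjusted p = 0.897 by edgeR quasi-likelihood). The log2 fold change of -0.66 shrank to -0.25 without EV RV replicate 1 and was -0.99 without EV RV replicate 2. The 2 genes closest in profile were *Fzd5* and *Aff3* (distances of 0.04 and 0.05), and 1065 genes lay within 0.5, so this profile was a common one. Myeloid cells also carry IL-6Rα, and the 8 myeloid markers summed to 4.69 and 6.11 CPM with EV RV and 6.24 and 4.70 CPM with Tox RV, with *Lyz2* at no more than 2 counts. Most of the sum was *Cd68* (3.06 to 4.28 CPM). Of the 5 markers tested, 2 were higher and 3 lower with Tox RV (median log2 fold change -0.27). The groups did not overlap for 2 of them, in opposite directions. *Fcer1g* was at 0.711 and 0.473 CPM with EV RV against 0.316 and 0.231 CPM with Tox RV. *Itgam* was at 0.261 and 0.250 CPM with EV RV against 0.695 and 0.328 CPM with Tox RV. The part of such cells in the *Il6ra* values was not tested. The annotation also places an antisense gene, *Gm42809*, over 242 exon bases of *Il6ra*.

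*Il6st*, which encodes gp130, was nearly level. It was at 18.5 and 17.1 TPM with EV RV (replicates 1 and 2) and 13.8 and 16.2 TPM with Tox RV (replicates 1 and 2). Each Tox RV value was below each EV RV value, but the fold change of 0.892 had a 95% interval of 0.661 to 1.205 (unadjusted p = 0.386, adjusted p = 0.900 by edgeR quasi-likelihood). The log2 ratio of *Il6st* to *Il6ra* TPM was 2.07 and 2.77 with EV RV and 2.90 and 2.83 with Tox RV, a difference of 0.44 (two-sided exact permutation test, p = 0.33, the smallest that 2 against 2 can give).

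Among the other genes around the IL-6 receptor, *Adam10* and *Adam17*, which encode proteases that shed IL-6Rα, had log2 fold changes of -0.21 (95% interval -0.60 to 0.19) and 0.27 (95% interval -0.13 to 0.67). *Il6* itself was at 0.08, 1.49, 0.2 and 1.33 TPM in the 2 EV RV and then the 2 Tox RV libraries, which splits by replicate number and not by group. *Il27ra*, whose product pairs with gp130 in the IL-27 receptor, was at 57.2, 34.4, 52.4 and 42.3 TPM in the same order, with a log2 fold change of 0.14 (95% interval -0.52 to 0.80). Of the 11 genes tested in the list of IL-6 family cytokines and receptor chains, 0 were called. In direction 2 were higher and 9 lower with Tox RV, beside 7135 higher and 7008 lower of all genes tested. The median log2 fold change was -0.21 beside 0.0036 over all genes tested. At an unadjusted p below 0.05, 0 were higher and 2 lower, beside 1.07% higher and 2.55% lower of all genes tested. The 2 were *Clcf1* (log2 fold change -0.71), which encodes a gp130 cytokine, and *Ebi3* (-0.64), which encodes a subunit of IL-27, and without EV RV replicate 1 they were at -0.42 and -0.38.

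*Stat3* was the steadiest and most abundant of the 7. Its level was 139 and 142 TPM with EV RV (replicates 1 and 2) and 144 and 135 TPM with Tox RV (replicates 1 and 2), from 15212 to 29456 expected counts. The groups overlapped and no library stood out, EV RV replicate 1 included. The fold change was 1.05 with a 95% interval of 0.796 to 1.38 (adjusted p = 0.942 by edgeR quasi-likelihood), and leaving out each library kept the log2 fold change between 0.01 and 0.12. *Stat3* overlaps *Stat5a* by 72 exon bases on the opposite strand on chromosome 11. Read on the transcript strand, none of the 7 genes shared a run of 50 bases with a transcript of another gene, and the opposite-strand overlaps remain because use of strand is not stated.

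The kinases and other STATs are the context for *Stat3*. *Jak1*, *Jak2* and *Tyk2* had log2 fold changes of -0.23, 0.01 and -0.14, each with a 95% interval that includes 0, and *Jak1* was spread by EV RV replicate 1 (133 TPM against 60.3 to 82.9 TPM). *Stat5a* and *Stat5b*, which act downstream of IL-2, lay below the EV RV values in both Tox RV libraries, with log2 fold changes of -0.27 (95% interval -0.70 to 0.16) and -0.35 (95% interval -0.74 to 0.04). *Stat2*, an interferon signalling STAT, had the largest difference among the 10 JAK and STAT genes tested, at 95.8 and 69.4 CPM with EV RV and 49.5 and 48.3 CPM with Tox RV (log2 fold change -0.76, unadjusted p = 0.0124, adjusted p = 0.897 by edgeR quasi-likelihood). The log2 fold change was -0.51 without EV RV replicate 1 and -0.97 without EV RV replicate 2.

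STAT3 activity was not measured in these libraries. *Socs3* encodes the feedback inhibitor that STAT3 induces and that binds gp130. It was at 8.57 and 16.9 TPM with EV RV (replicates 1 and 2) and 11.6 and 11.8 TPM with Tox RV (replicates 1 and 2). As with *Prdm1*, EV RV replicate 1 was lowest and the Tox RV libraries fell between the EV RV libraries. The log2 fold change of -0.05 had a 95% interval of -0.91 to 0.81, and was 0.57 without EV RV replicate 2 and -0.49 without EV RV replicate 1. Of the 17 genes tested in the STAT3 target list, 9 were higher and 8 lower and the median log2 fold change was 0.0046, while those with an unadjusted p below 0.05 were *Pim2* (-0.68), a survival kinase, and *Myc* (-0.57). Without EV RV replicate 1 they were at -0.60 and -0.33. In the list of pathway inhibitors, *Ptpn6*, which encodes the phosphatase SHP-1, was higher in Tox RV cells (log2 fold change 0.60, unadjusted p = 0.0222, adjusted p = 0.897 by edgeR quasi-likelihood).

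**Figure D4:**
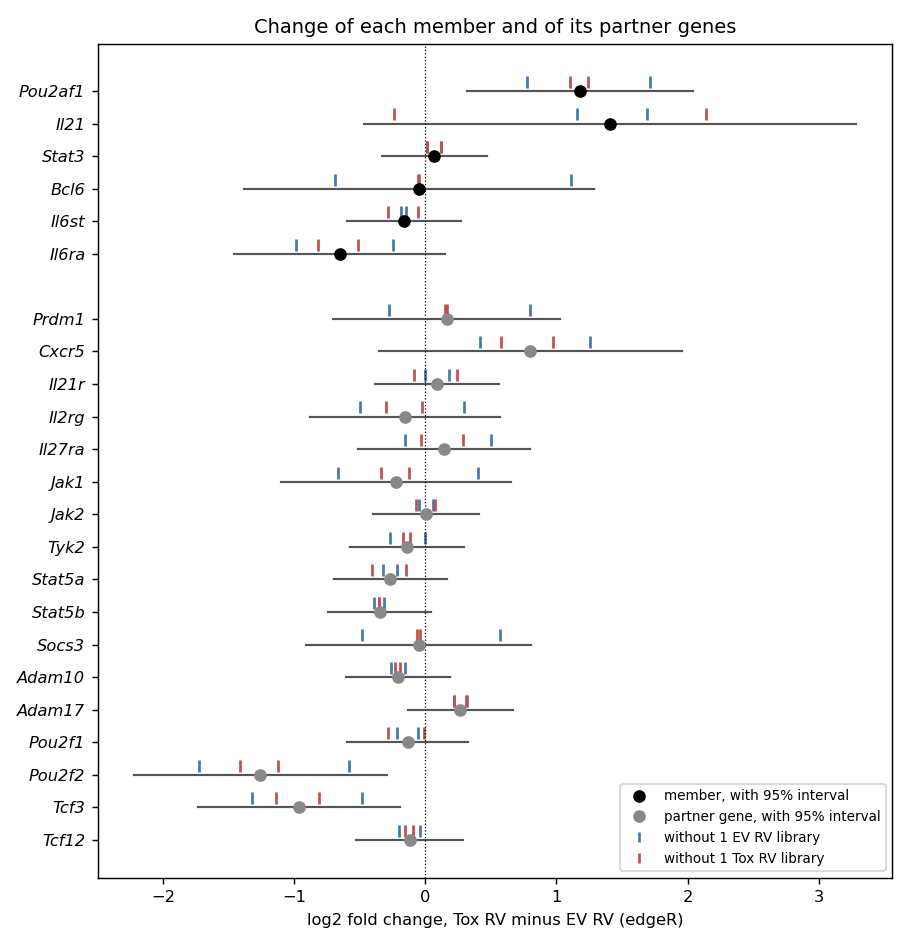
Log2 fold change of Tox RV over EV RV (horizontal axis, edgeR) for the 6 members tested (black) and partner genes (grey), with 95% intervals, and short bars above each line for the value without 1 EV RV (blue) or 1 Tox RV (red) library. The interval of *Pou2af1* (0.32 to 2.04) lies above 0 and those of *Pou2f2* and *Tcf3* below it, the blue bars of *Bcl6* lie on both sides of 0, and *Ascl2*, which was not tested, and *Il6* are not drawn.

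The wider lists held 114 genes in 10 groups, of which 104 could be tested. By edgeR quasi-likelihood, 0 of them were called at an adjusted p of 0.05, while DESeq2 called 1, *Pdcd1*. In direction 38 were higher and 66 lower (median log2 fold change -0.12), beside 7135 higher and 7008 lower of all genes tested. At an unadjusted p below 0.05 there were 12 genes (11.5%), 4 higher and 8 lower, beside 3.62% of all genes tested. The groups did not overlap for 41 of the 104 (39.4%), beside 36% of all genes. EV RV replicate 1 held the highest value of 50 of the 104 genes (48.1%), beside 37% of all genes, and the lists were chosen with earlier results of these data known.

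The TFH list itself, which left out the 7 members, was centred near 0. Of its 21 genes tested, 10 were higher and 11 lower with Tox RV, at a median log2 fold change of -0.08, and 2 passed an unadjusted p of 0.05. These were *Pdcd1*, which encodes PD-1 and which the study picked out from these libraries (log2 fold change 1.77, 95% interval 1.31 to 2.24, adjusted p = 0.490 by edgeR quasi-likelihood), and *Tox2* (log2 fold change 2.51), the paralog of *Tox*. *Tox2* stayed below 1 CPM in every library, at 0.119 and 0.0525 CPM with EV RV and 0.300 and 0.636 CPM with Tox RV. Of the BCL6 antagonists and repressed genes, 4 were higher and 11 lower with a median of -0.26, and *Id2* was the member with an unadjusted p below 0.05. Of the 11 BCL6 co-repressor genes tested, the BCL6 homologue *Bcl6b* (log2 fold change -1.84, below 1 CPM in every library) had an unadjusted p below 0.05, while 4 were higher and 7 lower. The 10 JAK and STAT genes split into 2 higher and 8 lower (median log2 fold change -0.24), the 10 pathway inhibitors into 5 and 5 (median -0.02), and the 6 tested receptors and cytokines of IL-21 and other STAT3-activating signals into 3 and 3 (median 0.0040). The 6 OCT and OBF-1 partner genes split into 2 higher and 4 lower (median -0.10), and the 6 E proteins and antagonists into 1 and 5 (median -0.24).

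**Figure D5:**
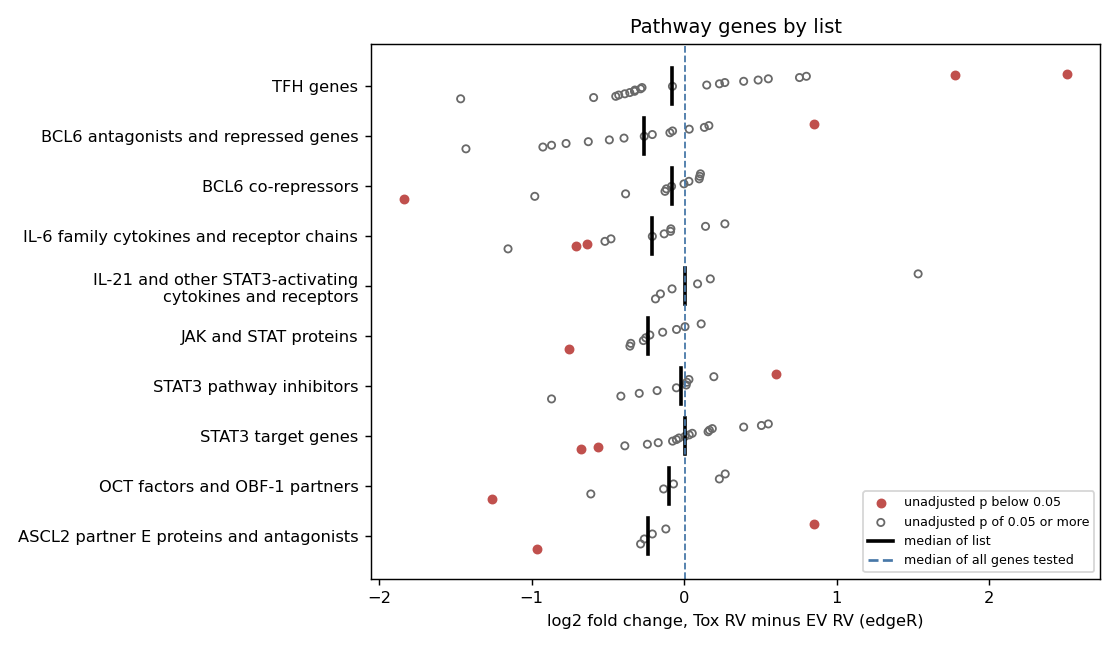
Log2 fold change of Tox RV over EV RV (horizontal axis, edgeR) of each gene tested in the 10 lists (rows), filled red where the unadjusted p was below 0.05, with a black bar at each list's median and a dashed line at the median of all genes tested. List medians lie between -0.26 and 0.0046, and the filled points are found on both sides.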

How the data were processed

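RNA-seq of 2 EV RV and 2 Tox RV libraries was analysed, with groups and replicate numbers taken from the sample titles. The authors aligned reads with bowtie (mm10) and quantified genes with RSEM, 1 library per file, and tool versions and use of strand are not given in the sources used here. The deposited expected counts are estimated fragments per gene and are not normalized. The deposited TPM and FPKM values are RSEM's own. FPKM served for 1 alternative ratio, and a further table of the whole series was not used here. Expected counts were rounded and tested with edgeR 4.0.16 (R 4.3.3), with filterByExpr (minimum count 10), TMM scaling and glmQLFTest over all genes without a block, with Benjamini-Hochberg adjustment. Standard errors and 95% intervals came from the quasi-likelihood F statistic. DESeq2 1.42.0 and limma 3.58.1 on log2(TPM + 1) and log2(TPM + 0.1) were alternatives, beside other scalings, no count filter, a replicate block and leaving out each library. The test was checked on simulated data with known changes. There edgeR recovered 18% of 2-fold and 79% of 4-fold changes, and DESeq2 27% and 84%. Of the unchanged genes edgeR called 12 and DESeq2 called 29. Most simulated 2-fold changes were thus missed by both tools. All simulated libraries were drawn around a common profile, with none set apart as EV RV replicate 1 was. These shares therefore need not hold for the real libraries, where edgeR did not call *Tox*. Coordinates and overlaps came from GENCODE M21 (mm10). Intervals cover the spread between libraries, and floors of 3 counts cover counting error only. Library totals were 46989997 to 74548723 expected counts. Replicates differed by more than counting error (chi-square per degree of freedom of 410.3 in EV RV and 75.1 in Tox RV). That measure scaled libraries by their totals and kept *Rn45s*, which took 24.7% and 12.0% of the EV RV counts. It therefore also holds such differences in composition. The members and lists were chosen with earlier results of these data known. Named genes were the 7 members, *Tox*, fixed partners of the members (apart from 1 not reported here), list genes with an unadjusted p below 0.05, and the 2 genes nearest in profile (mean TPM of 1 or more) to members spanning more than 1 log2 unit. *Klf2*, *S1pr1*, *Tcf7* and *Batf* were named on their values, and *Id1* and *Id3* beside *Id2*. The markers of B cells, myeloid cells, and CD8 T and NK cells served as descriptions. Of CD8 T and NK markers, *Ncr1* had 0 counts and the sums were 200.1 and 202 CPM in EV RV and 246 and 199 CPM in Tox RV libraries. *Nkg7* was higher (log2 fold change 0.87, unadjusted p = 0.00491 by edgeR) and *Eomes* was at -0.39. *Klrk1* was at -1.09 with overlapping groups (36.6 and 10.5 CPM with EV RV, 17.2 and 4.86 CPM with Tox RV). *Klrk1*, *Klrd1*, *Klrb1c* and *Cd8b1* were higher in replicate 1 than in replicate 2 of both groups, and *Cd8a* was lower.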

Additional observations from a re-analysis of the deposited data

How the results depend on the processing

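With 2 libraries a group, 0 members were called under any alternative run. The count of genes called moved from 0 to 22 with DESeq2, 22 without the low-count filter and 16 with a replicate block, and ranged from 1 (without EV RV replicate 1) to 393 (without EV RV replicate 2) with a library left out. Without Tox RV replicate 1 it was 10 and without Tox RV replicate 2 it was 22. Of the pathway genes 1 (*Pdcd1*) was called with DESeq2, without the filter and with the replicate block, and 0 to 10 with a library left out, the 10 without EV RV replicate 2 and 2 without Tox RV replicate 2. The *Bcl6* to *Prdm1* log2 difference ranged from -1.49 to 1.39. The cause of these moves was not tested. Scaling by library totals moved the median log2 fold change of all genes by 0.12, so values under it are relative to that shift. The replicate numbers could not be shown to pair mice. Deviations of same-numbered libraries correlated at 0.30 over 14143 genes.

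The following log2 fold changes turned direction, and the cause was not tested. *Bcl6* (-0.05) was 0.13 with library totals, 0.21 with the replicate block, 0.10 with limma on log2(TPM + 1) and 0.13 on log2(TPM + 0.1), and -0.69 to 1.11 with a library left out. *Stat3* was -0.014 in both limma fits and *Il21r* -0.00083 and -0.00086, with -0.090 to 0.24 for *Il21r* when a library was left out. *Jak2* was -0.0015 with median-of-ratios scaling, -0.036 with totals without *Rn45s*, -0.078 in both limma fits and -0.074 to 0.072 with a library left out. *Socs3* was 0.040 with library totals and 0.040 with the replicate block, and -0.49 to 0.57 with a library left out. *Il6* was 0.24 with the replicate block, 0.028 and 0.29 in the limma fits and -1.92 to 3.21 with a library left out, and *Tcf12* was 0.0071 with library totals. With a library left out *Il21* ranged from -0.24 to 2.14, *Prdm1* from -0.28 to 0.80, *Il2rg* from -0.50 to 0.29, *Jak1* from -0.66 to 0.40 and *Il27ra* from -0.15 to 0.50. In the 8 alternatives that kept all 4 libraries, *Pou2af1* stayed between 0.92 and 1.33 and *Il6ra* between -0.70 and -0.51.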
